A study of Mus musculus with 9 samples.

Results

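The P19 ceiling regions are the sites at which ChIP-seq for the nuclear protein DPPA4 reached the top of the authors' peak score in P19 cells. Members were chosen by the deposited P19 score, as all peaks of 3100 or more in either P19 list, merged where they shared at least 1 bp. They numbered 2109 regions, or 3.79% of the 55666 regions made by merging all peaks of the P19 lists. They came from 1399 ceiling peaks in P19 replicate 1 and 2108 in P19 replicate 2. The other 53557 merged P19 regions overlap none of them and are called the other P19 regions.

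P19 is a mouse embryonal carcinoma line, grown in DMEM with 10% FBS and 1% glutamine. E14 is a mouse embryonic stem cell line, kept here without feeders on gelatin in 2i medium containing 2% FBS. 3T3 is a mouse fibroblast line that carried Dppa4 ectopically and was grown in the same medium as P19, and the labels do not say how Dppa4 was introduced. Each of the 3 lines has 2 immunoprecipitated libraries with a peak list, all made with an antibody against DPPA4, and the 3 input libraries are not analysed here. The peak lists hold no expression values, so the identity of the cells was not checked against marker genes.

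DPPA4 (developmental pluripotency associated 4) is a small chromatin-associated protein with a SAP domain, a fold known for binding DNA. It forms a complex with the related protein DPPA2. The pair is expressed in early embryos, pluripotent stem cells and germ cells, and is known to help keep the promoters of developmental genes in a poised chromatin state. Fibroblasts normally do not express Dppa4.

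The score chose the members, so the values of P19 itself are a description. The scale of the score is not named in the lists. The highest score, 3233.06, was found in both P19 lists and equals minus 10 times the log10 of the smallest positive double-precision number, 3233.06. In P19 replicate 1, 1298 peaks scored exactly 3100 and 101 scored more, beginning at 3100.82. In P19 replicate 2, 1995 peaks scored exactly 3100 and 113 scored more, beginning at 3101.23. The peaks just outside scored 3099.72, 3098.68 and 3098.04 in replicate 1, and 3096.09, 3093.94 and 3093.93 in replicate 2. Most peaks at the ceiling were thus tied at 3100.

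All 2109 ceiling regions had a peak in both P19 lists, and 1383 of them (65.6%) were at the ceiling in both. Of all merged P19 regions, 2.48% were at the ceiling in both lists, a figure that the rule fixes. Another 720 regions were at the ceiling in replicate 2 alone, with replicate 1 scores from 1090.55 to 3099.72 and a median of 2615. The remaining 6 were at the ceiling in replicate 1 alone and scored from 2592 to 3083 in replicate 2. A region that missed the ceiling in 1 list was therefore still in the best 10% of that list, at percentile 90.1 or above. Percentiles are ranks of the score within a list, with 100 for the strongest peak and tied scores sharing their mean rank.

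Ceiling regions were wider than the other P19 regions, with a median of 1268 bp (quartiles 1055 and 1601 bp) against 518 bp (quartiles 381 and 731 bp). Regions of 2500 bp or more made up 5.69% of the ceiling regions (120) and 0.198% of the other P19 regions (106). Regions at the ceiling in both lists had a median width of 1402 bp, against 1017 bp for those at the ceiling in replicate 2 alone. Width and score come from the same P19 reads, so these widths are given with no test.

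The first question was whether the strongest P19 sites also carry a peak in embryonic stem cells. Nearly every ceiling region did. A peak was present in 2105 ceiling regions (99.8%, Wilson 95% interval 99.5 to 99.9) in E14 replicate 1 and in 2108 (99.95%, 99.7 to 99.99) in E14 replicate 2. Over all merged P19 regions the shares were 72.3% and 64.8% in these libraries. Among the other P19 regions, 71.2% had a peak in E14 replicate 1 and 63.4% in E14 replicate 2. The ceiling regions lay above the other P19 regions by 28.6 percentage points in E14 replicate 1 and 36.6 points in replicate 2, a mean of 32.6 ± 5.64 (SD, n = 2).

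Both E14 lists held a peak in 2104 ceiling regions (99.8%), against 59.6% of all merged P19 regions. No ceiling region lacked a peak in both E14 lists, and a count of 0 of 2109 allows a share of up to 0.142%. Of all merged P19 regions, 22.5% lacked a peak in both. The intervals and this limit cover counting error only and treat regions as independent. The margin over the other P19 regions depends on which of them are counted and on how many E14 peaks are kept. It was 15.9 points against P19 regions with peaks in both P19 lists, 56.5 points with the best-scoring 50% of the E14 peaks, and 72.8 points with E14 lists of 15462 peaks.

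In the fibroblasts with ectopic Dppa4 the ceiling regions also had a peak more often than the other P19 regions, but far less often than in E14. Peaks were present in 902 ceiling regions (42.8%, 40.7 to 44.9) in 3T3 replicate 1 and in 1534 (72.7%, 70.8 to 74.6) in 3T3 replicate 2. Over all merged P19 regions the shares were 19.8% and 26.3%. Of the other P19 regions, 18.9% had a peak in 3T3 replicate 1 and 24.5% in 3T3 replicate 2. The ceiling regions thus lay 23.8 points above the other P19 regions in 3T3 replicate 1 and 48.3 points above them in replicate 2. Ceiling regions exceeded the other P19 regions in 4 of 4 E14 and 3T3 libraries. An exact two-sided sign test gave p = 0.125, which is the least that 4 libraries can give.

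Between the lines, the share of ceiling regions with a peak averaged 99.9 ± 0.10% in E14 and 57.8 ± 21.2% in 3T3 (SD, n = 2 each), a difference of 42.1 points. Both E14 libraries stood above both 3T3 libraries, and the exact two-sided permutation p was 0.333, as low as 2 libraries against 2 allow. The difference was 27.1 points without 3T3 replicate 1, 57.1 points without 3T3 replicate 2, and 83.0 points with the best-scoring 50% of each list. The lists differ in length, with 61693 and 43443 peaks in E14 replicates 1 and 2 and 15462 and 17540 in 3T3 replicates 1 and 2. With all of these lists cut to their best-scoring 15462 peaks, the difference was 45.2 points. Read depth is unknown, so a region without a 3T3 peak may be unbound or below detection.

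The 3T3 peaks split the ceiling regions into 3 classes. Peaks in both 3T3 lists were found in 763 ceiling regions (36.2%), against 18.1% of all merged P19 regions. A peak in 1 of the lists was found in 910 regions (43.1%), against 9.97% of all merged P19 regions. Of the 910, 771 had it in replicate 2 and 139 in replicate 1. The remaining 436 (20.7%) had a peak in neither 3T3 list, against 71.9% of all merged P19 regions. Presence in both lines at once, with a peak in all 4 E14 and 3T3 lists, was recorded for 761 ceiling regions (36.1%) and for 7847 of the other P19 regions (14.7%).

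**Figure D1:**
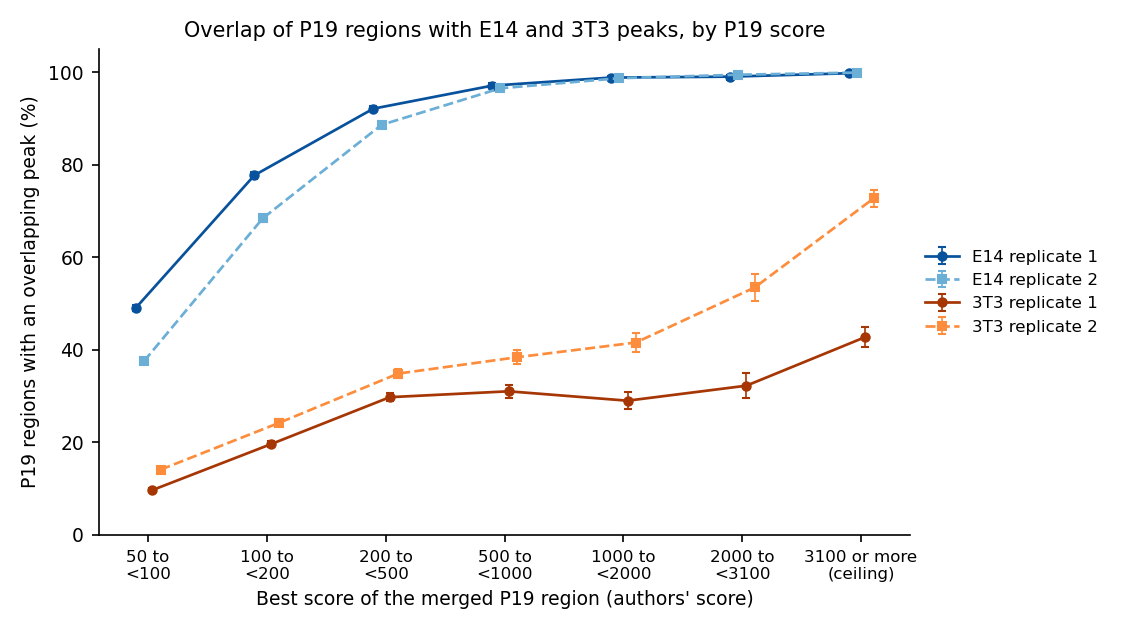
Share of merged P19 regions that overlap a peak of each E14 and 3T3 library (y axis, percent), by the best P19 score of the region (x axis, 7 bands); error bars are Wilson 95% intervals. The E14 lines are close to 100% from the band that starts at 1000, while the 3T3 replicate 2 line climbs from 41.6% in that band to 72.7% at the ceiling.

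In the plot of presence by P19 score, each E14 and 3T3 library had its highest share at the ceiling. In E14 replicate 1 the share with a peak was 49.0% for P19 regions scoring 50 to under 100, 92.1% for 200 to under 500, 99.1% for 2000 to under 3100 and 99.8% at the ceiling. E14 replicate 2 gave 37.5%, 88.7%, 99.5% and 99.95% in the same bands. E14 presence was thus nearly complete before the ceiling was reached. In 3T3 replicate 1 the share was 29.8% for scores of 200 to under 500 and 31.1% for 500 to under 1000. It was 29.0% for 1000 to under 2000, 32.3% for 2000 to under 3100 and 42.8% at the ceiling. In 3T3 replicate 2 it was 34.9%, 38.4%, 41.6%, 53.5% and 72.7% in these bands. In 3T3 replicate 1 the intervals were 40.7 to 44.9 at the ceiling and 29.7 to 35.0 in the band below it. In 3T3 replicate 2 they were 70.8 to 74.6 and 50.7 to 56.3. These intervals treat regions as independent and do not cover the spread between libraries. The median width of the P19 regions differed between those bands too, at 928 bp for 2000 to under 3100 and 1268 bp at the ceiling.

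The second question was how strong the overlapping peaks are within their own lists. In E14 the ceiling regions were near the top of the list. The best overlapping peak had a median percentile of 96.8 (quartiles 93.9 and 98.8) in E14 replicate 1 and 96.6 (93.9 and 98.5) in E14 replicate 2. The peaks overlapping the other P19 regions had medians of 64.8 and 58.0 in these libraries. At percentile 75 or more stood 98.1% of all ceiling regions in E14 replicate 1 and 98.2% in replicate 2, against 27.8% and 20.8% of all merged P19 regions. The E14 peaks themselves seldom reached the ceiling, with 161 and 116 ceiling regions scoring 3100 or more in replicates 1 and 2. The corresponding shares of all merged P19 regions were 0.357% and 0.262%.

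In 3T3 the order of the medians, taken over regions with a peak, was turned round. In replicates 1 and 2 such regions were 42.8% and 72.7% of the ceiling regions. They were 18.9% and 24.5% of the other P19 regions. The peaks overlapping ceiling regions had a median percentile of 36.2 (quartiles 19.8 and 61.3) in 3T3 replicate 1 and 35.7 (21.6 and 50.4) in 3T3 replicate 2. The peaks overlapping the other P19 regions had medians of 63.3 and 64.1. The median authors' score of the 3T3 peaks in ceiling regions was 76.8 in replicate 1 and 103 in replicate 2, against 142 and 243 in the other P19 regions. Of the ceiling regions with a 3T3 peak, 66.0% in replicate 1 and 74.5% in replicate 2 had it under percentile 50, against 36.1% and 35.9% of the other P19 regions with a peak. The strongest DPPA4 sites of P19 were therefore mostly weak peaks of the 3T3 lists where they were peaks at all.

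**Figure D2:**
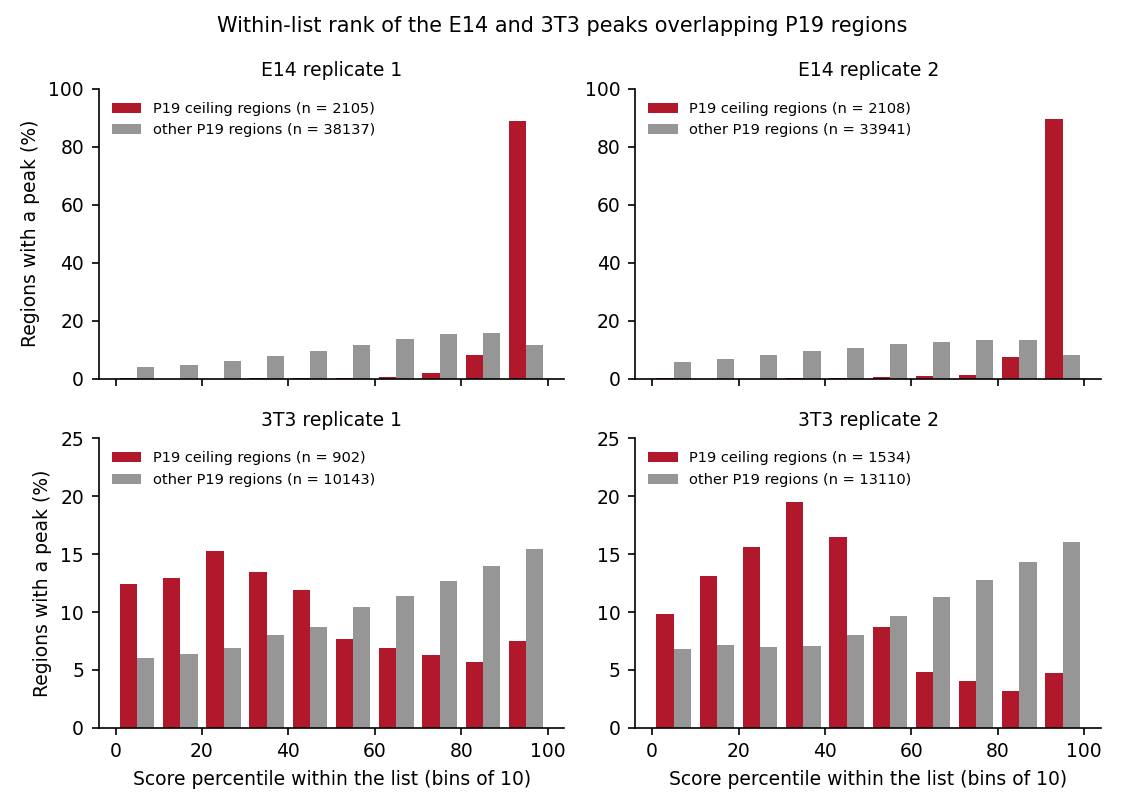
Distribution of the within-list score percentile (x axis, bins of 10) of the best E14 or 3T3 peak in P19 ceiling regions (red) and in the other P19 regions (grey), as a percent of the regions with a peak (y axis, on another scale in the 3T3 panels). The E14 panels pile up in the highest bin for ceiling regions, whereas the 3T3 panels lean to percentiles under 50, with medians of 36.2 and 35.7.

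The difference in median percentile, ceiling regions minus the other P19 regions, was +32.1 and +38.6 in E14 replicates 1 and 2, a mean of 35.3 ± 4.61 (SD, n = 2). It was -27.1 and -28.3 in 3T3 replicates 1 and 2, a mean of -27.7 ± 0.858 (SD, n = 2). The libraries of a line shared the sign and the lines had opposite signs. Over the 4 libraries the exact two-sided sign test therefore gave p = 1, and the difference between the lines gave an exact two-sided permutation p of 0.333, the smallest possible. Among the ceiling regions alone, the median percentile averaged 96.7 ± 0.192 in E14 and 36.0 ± 0.318 in 3T3 (SD, n = 2 each), a difference of 60.7 points with the same smallest permutation p of 0.333. With the E14 and 3T3 lists cut to the same length of 15462 peaks, this difference was 55.7 points.

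The low 3T3 ranks go with the extra presence. Counted over all regions, with or without a peak, 6.78% of the ceiling regions (5.78 to 7.93) and 6.82% of the other P19 regions had a 3T3 replicate 1 peak at percentile 75 or more. The background over all merged P19 regions was 6.82%. In 3T3 replicate 2 the shares were 7.30% (6.27 to 8.49) of the ceiling regions and 9.05% of the other P19 regions, with 8.98% over all merged P19 regions. At this cut of percentile 75, strong 3T3 peaks were thus no more frequent at ceiling regions than in the pooled other P19 regions. That pool mixes score bands with unlike shares. In 3T3 replicates 1 and 2 these were 2.01% and 3.86% for P19 scores of 50 to under 100. They were 14.5% and 17.3% for 200 to under 500, and 14.6% and 15.9% for 500 to under 1000. For 2000 to under 3100 they were 5.90% and 5.64%. The ceiling shares lay under those for 200 to under 1000 and above the others given here. Weak 3T3 peaks were more frequent at ceiling regions than in the pool. Peaks under percentile 50 lay in 28.2% of the ceiling regions and 6.83% of the other P19 regions in 3T3 replicate 1. In replicate 2 the shares were 54.2% and 8.79%. With the best-scoring 50% of each 3T3 list alone, the excess of ceiling regions over other P19 regions was 2.65 points, against 36.0 ± 17.3 points (SD, n = 2) with all peaks. The difference in median percentile was then -14.7.

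**Figure D3:**
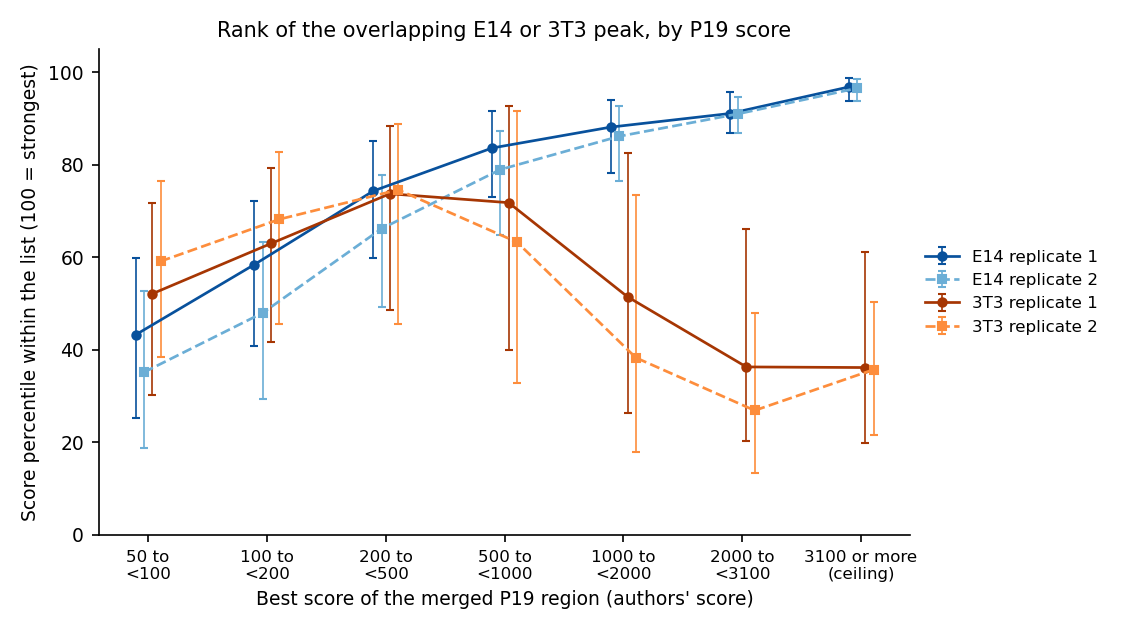
Median within-list percentile of the best overlapping peak in each E14 and 3T3 library (y axis, 100 is the strongest) by the best P19 score of the region (x axis); error bars are quartiles over regions with a peak. Both E14 lines climb throughout, while both 3T3 lines are highest for P19 scores of 200 to under 500 (73.8 and 74.6) and are at 36.2 and 35.7 at the ceiling.

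Rank in 3T3 did not follow the P19 score in one direction, as the plot of rank by P19 score shows. In 3T3 replicate 1 the median percentile was 52.1 for P19 regions scoring 50 to under 100, 73.8 for 200 to under 500, 51.5 for 1000 to under 2000, 36.3 for 2000 to under 3100 and 36.2 at the ceiling. In 3T3 replicate 2 the medians in these bands were 59.2, 74.6, 38.3, 26.9 and 35.7. The E14 medians climbed in every band, from 43.3 to 96.8 in replicate 1 and from 35.2 to 96.6 in replicate 2. Low 3T3 ranks were thus not limited to the ceiling. They were present in both 3T3 libraries at P19 scores of 2000 to under 3100. At 1000 to under 2000 they were present in replicate 2, while the replicate 1 median was 51.5.

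Within the ceiling regions the rank order was shared by libraries of a line and not between lines. The Spearman correlation of percentiles across regions was 0.91 between the E14 libraries (2104 regions) and 0.67 between the 3T3 libraries (763 regions). Between E14 and 3T3 libraries it ranged from -0.14 to 0.04, over 900 to 1533 regions. In the other P19 regions the E14 with 3T3 values ranged from 0.12 to 0.23. Regions are not independent replicates, and the points of 1 library share its depth, so these values are a description.

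Peak widths followed the ranks. E14 peaks in ceiling regions had a median width of 1051 bp (quartiles 865 and 1320) in replicate 1 and 1315 bp (1106 and 1628) in replicate 2. In the other P19 regions the medians were 506 and 824 bp. In 3T3 the peaks in ceiling regions had medians of 390 and 920 bp in replicates 1 and 2, against 483 and 982 bp in the other P19 regions. The difference, ceiling regions minus the other P19 regions, averaged 518 ± 38.2 bp in E14 and -77.5 ± 21.9 bp in 3T3 (SD, n = 2 each), with opposite signs in the lines (exact two-sided sign test over the 4 libraries, p = 1; exact permutation p between the lines 0.333, the smallest possible). The E14 value was 279 bp with E14 lists of 15462 peaks. The 3T3 value changed sign, to +112 bp, with the best-scoring 50% of each list. It was -127 bp with a P19 threshold of 2000 and -46.5 ± 64.3 bp without P19 replicate 2 (SD, n = 2). For regions at the ceiling in both P19 lists it was -27.5 ± 61.5 bp (SD, n = 2), and the 3T3 libraries then differed in sign.

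**Figure D4:**
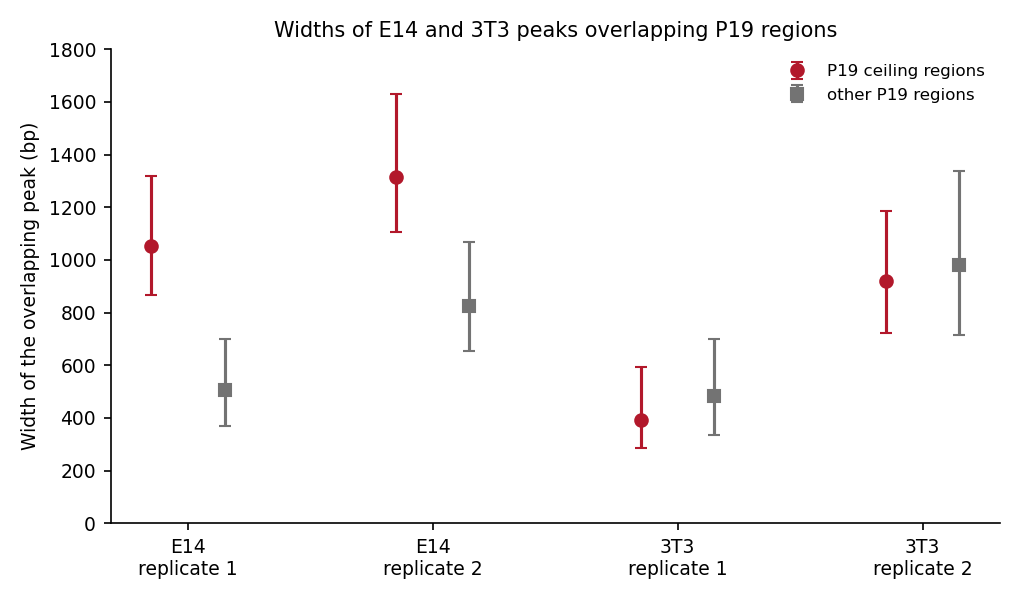
Median width of the best overlapping peak (y axis, bp) in P19 ceiling regions (red circles) and in the other P19 regions (grey squares) for each E14 and 3T3 library; error bars are quartiles over regions. Ceiling regions have the wider peaks in both E14 libraries (1051 and 1315 bp) and slightly narrower ones in both 3T3 libraries (390 and 920 bp).

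The offset of E14 and 3T3 peaks from the P19 peak was also compared. The midpoint of the best E14 peak lay a median of 40.0 bp (E14 replicate 1) and 55.75 bp (replicate 2) from the midpoint of the best P19 replicate 2 peak in ceiling regions. In the other P19 regions the medians were 50.5 and 68.0 bp. In 3T3 replicate 1 the offset was 170.0 bp in ceiling regions and 79.5 bp in the other P19 regions, and 31.0% and 58.8% of the peaks lay within 100 bp. In 3T3 replicate 2 the offsets were 93.0 and 103.0 bp. Against the pooled other P19 regions, the midpoints in ceiling regions were therefore displaced in 3T3 replicate 1 and not in replicate 2. By P19 score, the replicate 1 median was 98 bp for 500 to under 1000 and 106 bp for 1000 to under 2000. It was 115.5 bp for 2000 to under 3100, so it climbed before the ceiling was reached. In replicate 2 the median was 138.5 bp for 50 to under 100 and 74.5 bp for 2000 to under 3100. Against the band just below the ceiling, the offset was thus larger at the ceiling in both 3T3 libraries. Of the regions with a 3T3 replicate 1 peak, 16.7% of the ceiling regions and 9.35% of the other P19 regions held more than 1. In 3T3 replicate 2 these shares were 5.35% and 1.27%. The part of such split peaks in the offset was not tested.

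Wider ceiling regions had more and stronger 3T3 peaks. Of the narrowest 528 ceiling regions (613 to 1055 bp) 28.6% had a 3T3 replicate 1 peak and 53.2% a 3T3 replicate 2 peak. In the widest 527 (1602 to 59403 bp) the shares were 65.1% and 91.3%. The median 3T3 percentile was 27.6 and 25.4 in the narrowest set and 55.3 and 51.2 in the widest. In E14 the median percentile was 94.2 and 94.3 in the narrowest set and 98.8 and 98.6 in the widest. The part of region length in these values was not tested.

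A small group of ceiling regions was strong in the fibroblasts too. Percentile 75 or more in both 3T3 lists was reached by 118 ceiling regions (5.60%), a share near the 6.08% of all merged P19 regions. Their median width was 2084.5 bp, against 1091 bp for the 436 regions with no 3T3 peak, and 35.6% of them spanned 2500 bp or more. Their E14 percentiles had medians of 96.2 and 95.5, against 95.8 and 95.8 for the regions with no 3T3 peak, so the E14 ranks of these groups were nearly alike. None of the 118 lay on the X chromosome, which allows a share of up to 2.54%. Of all peaks in the lists of 3T3 replicates 1 and 2, 1.42% and 2.33% lay on this chromosome, both under that limit. A peak of 3100 or more lay in 1 and 5 of the 2109 ceiling regions in 3T3 replicates 1 and 2. The counts were 0 and 20 of the 53557 other P19 regions. Over all 55666 merged P19 regions they were 1 (0.00180%) and 25 (0.0449%).

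The X chromosome held 192 ceiling regions, or 9.10% of them, but 2.45% of the other P19 regions. Of all merged P19 regions on the X chromosome 12.8% (11.2 to 14.5) were ceiling regions, against 3.79% over the genome. The Y chromosome followed with 12.0% (4.17 to 29.96) of only 25 regions, and its unplaced contigs with 8.94% of 123. The contigs assigned to chromosome 8 gave 1 of 10 regions. At the other end 6 sets of unplaced contigs, each with 3 to 13 P19 regions, had no ceiling region. Among the assembled chromosomes, chosen for naming after the values were seen, the lowest shares were 2.06% (1.69 to 2.50) on chromosome 11, 2.49% on chromosome 17 and 2.64% on chromosome 19. The highest autosomal share was 5.14% (4.30 to 6.13) on chromosome 12. Chromosome 11 thus held 4.69% of the ceiling regions and 8.79% of the other P19 regions.

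**Figure D5:**
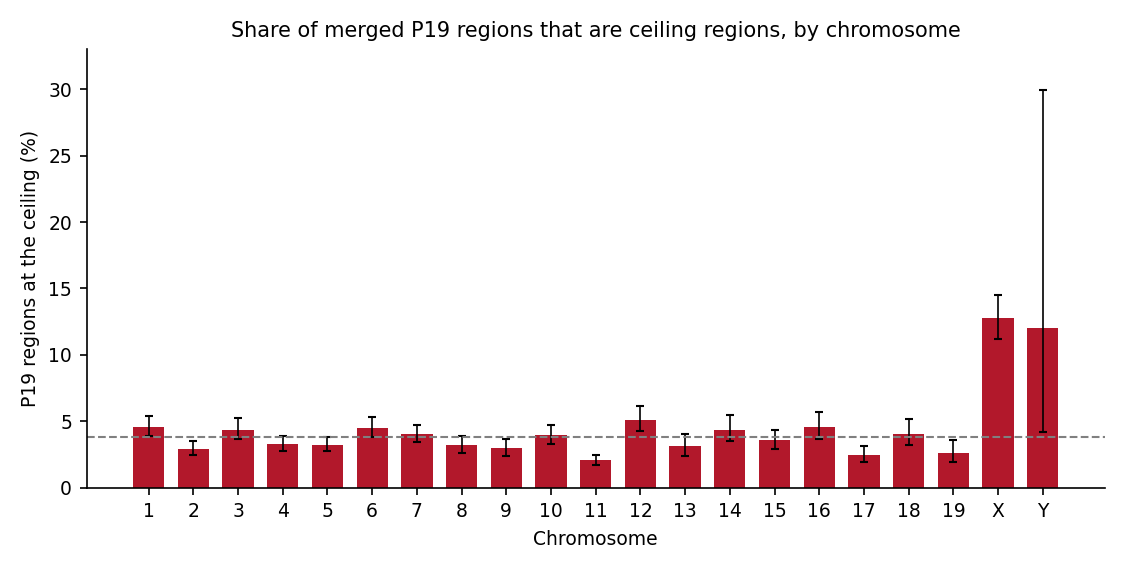
Share of the merged P19 regions of each chromosome that are ceiling regions (y axis, percent; bars start at 0), with Wilson 95% intervals; the dashed line is the share over the genome, 3.79%. The X chromosome stands at 12.8% and chromosome 11 at 2.06%, and the Y chromosome has a wide interval because it holds 25 regions.

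The excess on the X chromosome was also present at the ceiling of the E14 lists. Of the E14 peaks at 3100 or more, 9.09% (5.83 to 13.9) lay on the X chromosome in replicate 1 and 12.9% (8.29 to 19.4) in replicate 2, against 2.61% and 2.99% of all peaks in these lists. In P19 the shares were 8.93% and 9.11% of the ceiling peaks, against 2.92% and 2.78% of all peaks. The X-linked ceiling regions had E14 ranks close to those of the autosomal ones, with medians of 97.0 and 96.9 on the X chromosome and 96.8 and 96.5 on autosomes. In 3T3 they had a peak less often, at 26.6% (20.8 to 33.2) in replicate 1 and 59.4% (52.3 to 66.1) in replicate 2, against 44.6% (42.4 to 46.8) and 74.2% (72.2 to 76.1) of the 1900 autosomal ones. The other P19 regions showed lower 3T3 presence on the X chromosome too, at 6.63% and 12.3% in replicates 1 and 2, against 19.2% and 24.8% on autosomes.

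Of the E14 peaks at 3100 or more, 161 of 198 in replicate 1 (81.3%) and 116 of 140 in replicate 2 (82.9%) lay in P19 ceiling regions. A further 28 and 19 overlapped P19 regions scoring 1000 to under 3100, 6 and 3 overlapped weaker P19 regions, and 3 and 2 had no P19 peak. The few sites at the top of the E14 lists were thus mostly at the top of the P19 lists as well. In 3T3 replicate 2, 5 of the 16 peaks at 3100 or more lay in P19 ceiling regions and 7 in P19 regions scoring under 1000.

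Single regions show the range of these patterns. They are placed in the mm9 assembly, 1-based, and were not assigned to genes, since the gene table used here belongs to another assembly. The regions with the highest mean percentile over the E14 and 3T3 lists were broad. The first lay on chromosome 12 from 114013887 to 114023226 (9340 bp). It scored 3100 in both P19 and both E14 lists, 1268 in 3T3 replicate 1 and 3100 in 3T3 replicate 2. A neighbouring pair on chromosome 1 followed, from 172998858 to 173005372 and from 173007595 to 173012504. The fourth lay on chromosome 15 from 81523027 to 81525869 and reached percentiles 99.9 and 99.9 in the 3T3 lists. These sites were close to the top in all 3 lines.

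Other regions were at the ceiling in P19, near the top in E14 and without a 3T3 peak. The first was a region of 1230 bp on the X chromosome from 86137460 to 86138689, with scores of 3100 in both P19 lists, and of 3100 and 3184 in E14 replicates 1 and 2. The next lay on chromosome 3 from 17633587 to 17635531. It was followed by one on chromosome 2 from 174878272 to 174880032, and by one on chromosome 14 from 43644982 to 43646267. Each of these scored 3100 in both E14 lists, and the X chromosome region precedes them only by its score above 3100. The regions with 3T3 peaks that were weakest beside their E14 rank included one on chromosome 18 from 43162223 to 43163807. It scored 1635 and 1457 in E14 (percentiles 98.3 and 98.0) and 50.5 and 50.4 in 3T3, at the lower end of those lists. On chromosome 13 from 36944647 to 36945801 the E14 scores were 2264 and 1812 and the 3T3 scores 50.8 and 56.4. A region on chromosome 4 (21577278 to 21578948) and one on chromosome 9 (4259179 to 4261066) had mean E14 percentiles of 99.2 and 99.3 and mean 3T3 percentiles of 5.66 and 6.57.

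In mean percentile, with a missing peak counted as 0, 55 of 2109 ceiling regions (2.61%) ranked higher in 3T3 than in E14. Of the 761 with peaks in all 4 lists, 52 (6.83%) did. These shares were not computed for the other P19 regions, so whether they are particular to ceiling regions is not known. With a missing peak counted as 0, the region with the largest gap lay on chromosome 15 from 98621910 to 98623557. Its missing E14 replicate 1 peak enters as 0. It scored 2862 and 3202 in P19, had no peak in E14 replicate 1 and 188 in E14 replicate 2, and scored 177 and 318 in 3T3 (percentiles 70.7 and 72.1). On chromosome 8 a region from 129107853 to 129109020 scored 3100 in both P19 lists, 129 and 106 in E14 and 309 and 573 in 3T3. Its gap of 39.3 percentile points was the largest among the 761 regions with peaks in all 4 lists. Another from 72425537 to 72427863 had mean percentiles of 56.3 in E14 and 94.8 in 3T3. The fourth lay on chromosome 1 from 64781162 to 64783415, with mean percentiles of 46.5 in E14 and 75.4 in 3T3. All of these E14 values lie far under the E14 median of the ceiling regions.

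The 5 ceiling regions that lacked a peak in 1 of the E14 lists, named after their values were seen, include the chromosome 15 region above. On chromosome 5 from 125646116 to 125647492 both P19 lists scored 3100, while E14 replicate 1 scored 53.7 (percentile 7.12), E14 replicate 2 had no peak and 3T3 replicate 2 scored 77.2. The others had no peak in E14 replicate 1. One lay on chromosome 1 from 90101696 to 90102708, another on chromosome 2 from 174109469 to 174111949, and the last on chromosome 11 from 82743613 to 82746656. Their E14 replicate 2 scores were 226, 100.6 and 189. No region was at the ceiling in both P19 lists with no peak in both E14 lists.

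The 4 widest ceiling regions held from 0 to 49 peaks per list. On chromosome 8 a region from 126064037 to 126123439 spanned 59403 bp and held 7 and 4 peaks in the P19 lists, 46 and 9 in the E14 lists, and 49 and 17 in the 3T3 lists. Its neighbour from 126124403 to 126148512 spanned 24110 bp and held 7 and 3 P19 peaks, 11 and 5 E14 peaks and 22 and 5 3T3 peaks. A region of 10375 bp on chromosome 3 from 6297347 to 6307721 was a single peak of P19 replicate 2 that met 6 peaks of replicate 1, and it had 1 peak in each E14 list, 10383 and 10491 bp wide, and none in either 3T3 list. A region of 9446 bp on chromosome 15 from 76004331 to 76013776 had 3 and 5 peaks in the 3T3 lists. Most ceiling regions were single peaks in comparison, and 2025 and 2091 of them held 1 peak in P19 replicates 1 and 2.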

How the data were processed

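ChIP-seq peak lists for DPPA4 in P19, E14 and 3T3 cells were used as deposited. Per the submitters' processing notes, the tools included BWA 0.7.13-r1126 and SAMtools 1.3, with bcl2fastq 1.8 and CASAVA 1.8, and the genome build was mm9. Peak names begin with MACS. The caller's version, threshold and control are not stated in the labels or lists. Each deposited list gives a peak's coordinates, name and the authors' score, and peaks were called per library. Read depth is unknown. The labels do not state separate cultures for the 2 libraries per line, so p-values measure only the spread between these libraries, which may be technical.

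Members, tests and alternatives were chosen with earlier results of these data known. Overlap meant at least 1 bp, and a region took the score, percentile and width of its best-scoring peak in a list. Libraries were the units of the exact permutation and sign tests. Intervals are Wilson 95% intervals. Named were, 4 each, the regions with the highest mean percentile over the E14 and 3T3 lists, those with no 3T3 peak and the highest E14 percentile, those with no E14 peak (none existed), those with the largest differences between the lines in either direction, and the widest, and the 3 chromosomes with the largest and smallest shares. Offsets, width classes, 3T3 classes and correlations were added after the data were seen, as were tied ranks from 3100 upwards and regions under 2500 bp alone. Other alternatives were regions of 500 bp, an overlap covering 50% of the shorter interval, a ceiling in both P19 lists, a threshold of 2000, other P19 regions with peaks in both lists, lists cut to 15462 peaks or to the best-scoring 50%, autosomes alone, leaving out each library and a replicate block. Code was tested on simulated data. The software was SciPy 1.17.1, pandas 2.3.3, NumPy 2.4.6 and Matplotlib 3.10.9 under Python 3.11.15. No sequence is printed, because no genome of the build mm9 was used here.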

Additional observations from a re-analysis of the deposited data

Results flagged for a closer look

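The difference in median percentile, ceiling regions minus the other P19 regions, was taken over regions with a peak. It was positive in both E14 libraries (+32.1 and +38.6) and negative in both 3T3 libraries (-27.1 and -28.3). The E14 mean exceeded the 3T3 mean by 63.1 percentile points. The difference in median peak width was likewise positive in both E14 libraries (545 and 491 bp) and negative in both 3T3 libraries (-93 and -62 bp), a gap of 595.5 bp between the lines. The opposite signs drew attention to these values. For regions at the ceiling in both P19 lists, the 3T3 width difference was -27.5 ± 61.5 bp (SD, n = 2). The 3T3 libraries then differed in sign. With 2 libraries per line, the differences between the lines could not be tested at the 0.05 level, and the exact two-sided permutation p was 0.333 for each, the smallest possible.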

How the results depend on the processing

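Of 130 values recomputed under 17 alternatives, 126 kept their direction or, for counts, stayed within 1.5 times the main value. No comparison could pass 0.05, so this does not measure stability. The 3T3 width difference turned to +112 bp with the best-scoring 50% of each list, which leaves out the weak peaks. Ceiling regions numbered 1383 at the ceiling in both P19 lists, 3296 with a threshold of 2000, and 1399 to 2108 when a P19 library was left out (1399 without P19 replicate 2), against 2109. Leaving out a library gave 27.1 to 57.1 points for the E14 minus 3T3 difference in presence, 21.8 to 36.6 points for the E14 excess over other P19 regions and 23.8 points (without 3T3 replicate 2) to 48.3 points for the 3T3 excess. The difference in median percentile then ranged from 28.7 to 38.6 in E14 and from -28.3 to -25.9 in 3T3. With 500 bp regions, the 3T3 excess was 33.5 points. With a replicate block, which sets each P19 list against E14 and 3T3 libraries of the same number, presence in E14 minus 3T3 was 39.7 points and the percentile difference 59.2 points, both in the main direction. Deviations of libraries with the same number had correlations from 0.05 to 0.08 over 6472 other P19 regions with peaks in all 6 lists, and no label ties the numbers to a common culture or day. Counting scores of 3100 or more as tied left the percentile differences at 35.3 in E14 and -27.7 in 3T3.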

Other observations

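Spacing was measured for the ceiling regions alone. It was not compared with that of an equal number of other P19 regions, so it does not show whether ceiling regions are clustered or isolated. The median gap between neighbours was 706 kb (quartiles 265 and 1632 kb), and 132 of 2084 gaps (6.33%) were under 50 kb. Runs of 4 or more ceiling regions at such gaps numbered 5. A run of 5 regions lay on chromosome 10 (80253402 to 80351541), and another on chromosome 12 (85350288 to 85442621). Runs of 4 lay on chromosome 6 (47689587 to 47704706), chromosome 8 (72404209 to 72427863) and the X chromosome (76989004 to 77107607). All regions of these runs had peaks in both E14 lists, as did 99.8% of all ceiling regions. In the runs on chromosomes 10, 6 and 8, all regions also had peaks in both 3T3 lists, against 36.2% of all ceiling regions. In the chromosome 12 run 4 and 5 of the 5 regions had a peak in 3T3 replicates 1 and 2. In the X chromosome run 1 and 3 of the 4 regions had a peak in 3T3 replicates 1 and 2. These runs were found by looking through the data and no test was made of them.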
